A study of Urosaurus graciosus
Urosaurus ornatus and Urosaurus graciosus and Urosaurus ornatus with 18 samples.

Results

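Liver transcripts of hybrid lizards were compared with those of the parental species Urosaurus ornatus at 36 °C. The comparison rests on 6 of the 18 libraries of the series, chosen by the labels alone: hybrids A, B and D and U. ornatus E, F and H, each held at 36 °C for 48 h and each with a letter of its own, read here as 1 animal a letter. The labels give hybrids the parental species U. graciosus and U. ornatus, and name no generation of crossing, no direction of the cross and no origin of the animals. The other libraries are 3 U. graciosus at 36 °C (J, R and S) and 3 other males of each lineage held at 40 °C (hybrids I, K and X, U. ornatus L, N and O, U. graciosus P, Q and T). All 18 animals were males. The stated question of the series was the expression of antioxidant genes in hybrid animals, and the title speaks of introgressed mitochondrial DNA and of oxidative damage to DNA.

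The respiratory chain of mitochondria is built from proteins of 2 genomes: a few core subunits come from mitochondrial DNA, and all other subunits, the assembly factors and the ribosomal proteins of mitochondria come from nuclear genes. A hybrid can therefore combine nuclear alleles of both parents with the mitochondrial DNA of a single parent. Electrons that leave the chain form superoxide, which superoxide dismutases turn into hydrogen peroxide and which catalase, glutathione peroxidases and peroxiredoxins remove. The liver is a tissue rich in mitochondria that makes plasma proteins, lipoproteins, glucose and bile acids, breaks down amino acids and detoxifies foreign compounds.

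The 6 libraries held 20218366 to 35002548 counts, and their 10 most abundant genes took 23.4% to 25.2% of the counts. Across genes, log2 values of the hybrids correlated with each other at 0.95 to 0.964, with U. ornatus at 0.869 to 0.890 and with U. graciosus of the same temperature at 0.943 to 0.956. On the first principal component of all 18 libraries the U. ornatus animals at 36 °C lay between -98.8 and -80.5, the hybrids between 45.1 and 55.3 and the U. graciosus animals between 42.4 and 53.7. The hepatocyte markers TF (transferrin) and APOB (the main protein of lipoproteins) were the most abundant of their list, at 9236 CPM or more in every library compared. TF ran from 9236 CPM in U. ornatus E to 70102 CPM in hybrid A. All hepatocyte markers tested summed to 154863, 170630 and 105428 CPM in hybrids A, B and D. In U. ornatus E, F and H they summed to 83945, 105663 and 122656 CPM. CPM is the count of a gene relative to the scaled total of its library, and it is not corrected for gene length, so levels are compared between animals and not between genes. In bulk liver, fewer cells of a type and less RNA per cell cannot be told apart. Among the animals at 40 °C, hybrid X stood apart, with 35529 CPM over all hepatocyte markers against 116347 and 144356 in hybrids K and I, and with 5438 CPM over the stellate and fibroblast markers against 763 and 940. U. ornatus O was also low for the hepatocyte markers, at 42631 CPM against 71802 and 69476 in L and N. X, T and O each had the highest level of the chaperone gene HSP90AA1 in their group. X held 1694 CPM against 403 and 417, O 2467 against 627 and 626, and T 10847 against 589 and 570. Counts, list counts and the differences of the genes described at 40 °C are also given without X, T and O.

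Hybrids and U. ornatus differed in 2925 of 15856 genes tested (18.4%) at an adjusted p under 0.05 (edgeR's quasi-likelihood test, Benjamini-Hochberg adjustment over all genes tested). Of these, 1544 genes were higher in hybrids (9.74% of genes tested) and 1381 were lower (8.71%), while 5357 genes had an unadjusted p under 0.05. The median size of a called difference was 1.56 on the log2 scale, a 2.95-fold difference, and the smallest was 0.46. Differences of at least 4 on that scale were found for 202 higher and 235 lower genes. The median over all genes tested was -0.003, with 7900 genes above 0. Called differences were largest among rare transcripts: their median size was 4.81 for genes under 1 CPM on average over the 6 libraries, 1.99 from 1 to 10 CPM, 1.09 from 10 to 100 CPM and 1.34 from 100 CPM up. Genes of the last class were called in 12.6% of 1392 cases, and genes from 10 to 100 CPM in 20.7% of 6905. Genes under 1 CPM were called in 12% of 2384 cases. With so few counts small differences rarely pass the threshold, so the sizes of called genes cannot be compared freely between classes. Genes with placeholder names were called in 16.8% of 4120 cases, against 19% of the others. The count was lower by more than 1.5 times without each of 4 animals: it was 1685 without hybrid A, 1796 without hybrid B, 1847 without U. ornatus E and 1843 without U. ornatus F. In the accounts that follow, a called gene stayed called in each of 18 refits that left out 1 library, unless its sentence says otherwise. Of 150 named genes that were called, 87 did so.

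**Figure D1:**
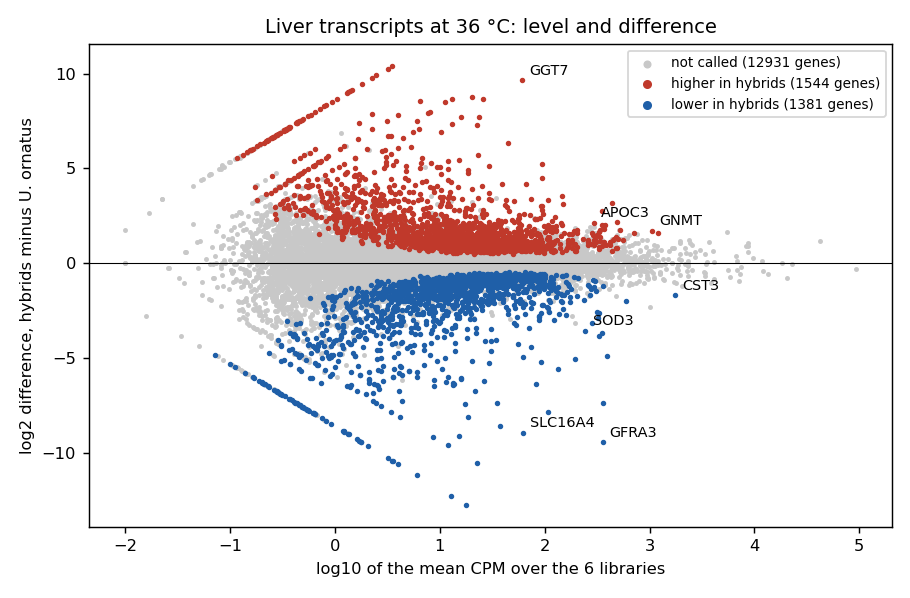
Each point is a gene tested, with the log10 of its mean CPM over the 6 libraries on the horizontal axis and the log2 difference between hybrids and U. ornatus at 36 °C on the vertical axis. The 1544 red genes were higher in hybrids and the 1381 blue genes were lower; straight lines of points at the left edge of the cloud are genes with few or no counts in 1 group.

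The largest rises among genes of at least 1 CPM were in genes with few or no counts in U. ornatus. Reads were matched to the genome of another genus, Sceloporus undulatus, and how well each lineage matched it was not tested. The same limit applies to the falls and to the genes with no counts in a group. Values are given in the order A, B, D for hybrids, E, F, H for U. ornatus and J, R, S for U. graciosus. GGT7, a member of the gamma-glutamyltransferase family, stood at 184, 75.6 and 105 CPM in hybrids and at 0.284, 0 and 0.155 in U. ornatus, with U. graciosus at 3.54, 1.75 and 2.37. Over the 3 animals of a side these were 10142 counts against 10, a ratio of 870 with a 95% counting interval of 473 to 1816 (adjusted p = 0.00166). ACBD7, which carries an acyl-CoA binding domain, reached 68.3, 29.9 and 23.9 CPM in hybrids against 0.0947, 0.184 and 0 in U. ornatus, a ratio of 503 with an interval of 231 to 1371 (adjusted p = 2.01e-04). In both genes every hybrid lay above every animal of the parental species at 36 °C. Even so, hybrids against U. graciosus gave an adjusted p of 0.126 for GGT7 and 0.246 for ACBD7. At 40 °C U. graciosus T held 58 CPM of GGT7, against 1.6 and 1.5 in P and Q.

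COL4A3, a collagen chain of basement membranes, was found at 17.3, 19.3 and 2.48 CPM in hybrids and at 0.0947, 0 and 0 CPM in U. ornatus, where it had 2 counts in all. The ratio was 493, with an interval of 136 to 4072 (adjusted p = 0.00433). CADPS, a factor of vesicle release, had 12.7, 14.1 and 40.3 CPM against 0, 0 and 0.155, a ratio of 343 (134 to 1262; adjusted p = 0.00185). RAB15, a small GTPase of endosomes, had 24.6, 16.6 and 7.24 CPM against 0.0947, 0.0921 and 0, a ratio of 301 (117 to 1105; adjusted p = 1.05e-04). U. graciosus held COL4A3 at 2.14 to 7.64, CADPS at 6.04 to 29.5 and RAB15 at 6.42 to 23.9 CPM, so the low group for these genes was U. ornatus. In ELAPOR2, PSD, SLC24A2, KCND3, EFCAB6 and RET, also of the rule, every hybrid lay above every U. ornatus animal, with ratios from 218 to 449. For EFCAB6 U. graciosus was low as well, at 0.535, 0.436 and 0.253 CPM against 5.54, 8.27 and 4.96 in hybrids. Hybrids against U. graciosus gave an adjusted p of 0.212 for EFCAB6. The gene of the rule whose groups overlapped was CKM, the creatine kinase of skeletal muscle: hybrids had 0, 4.19 and 31.7 CPM and U. ornatus 0.189, 0 and 0. Its adjusted p of 0.03 became 0.15 without hybrid D, 0.0626 without E, 0.097 without F and 0.0881 without H.

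Among the falls, GFRA3 was abundant in U. ornatus and scarce in hybrids and U. graciosus. GFRA3 is a co-receptor that presents a ligand of the GDNF family to the receptor tyrosine kinase RET. It stood at 349, 497 and 1286 CPM in U. ornatus, at 0.186, 0.358 and 2.63 CPM in hybrids and at 1.65, 1.27 and 1.1 CPM in U. graciosus. Hybrids had 68 counts against 51336, so U. ornatus was 880-fold higher, with a counting interval of 694 to 1133 (adjusted p = 2.01e-04). RET itself was higher in hybrids, at 3.22, 3.83 and 3.09 CPM against 0.0473, 0 and 0 in U. ornatus, where it had 1 count in all (ratio 233, interval 41.5 to 9253, adjusted p = 2.01e-04). The 2 genes of this receptor pair thus differed in opposite directions, with no overlap of the groups in either.

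SLC16A4, a transporter of the monocarboxylate family, was found at 106, 132 and 133 CPM in U. ornatus and at 0.464, 0 and 0.253 CPM in hybrids. U. ornatus was 498-fold higher, with an interval of 322 to 815 (adjusted p = 5.64e-05). ATP6V1B1, a subunit of the proton pump of acid-secreting cells, had 18.2, 18.4 and 186 CPM in U. ornatus against 0.217, 0.143 and 0.203 in hybrids (433-fold, 262 to 774; adjusted p = 4.41e-04), and animal H was the highest by far. ASIC5, an ion channel opened by bile acids in rodents, had 5.3, 48.5 and 57 CPM in U. ornatus against 0, 0.287 and 0.101 in hybrids (307-fold, 167 to 641; adjusted p = 0.00183). DNAH5, a dynein heavy chain of motile cilia, had 19, 38.7 and 32.7 CPM against 0.124, 0 and 0 (608-fold, 237 to 2232; adjusted p = 1.29e-05). For SLC16A4, ATP6V1B1, ASIC5 and DNAH5 no animal of U. graciosus at 36 °C exceeded 0.453 CPM, so the high group was U. ornatus. KCNA7, GPR158, TRPM6, UNC80, ANO3 and AMPH followed the same order, with U. ornatus 123-fold to 274-fold higher. CFAP47 was carried by animal E, at 24.4 CPM against 0.507 and 0.116 in F and H, and its adjusted p of 0.0157 became 0.218 without E, 0.0673 without hybrid A and 0.0545 without hybrid D.

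Where the lower group held so few counts, the size of a difference rested on single animals. The fitted log2 difference of GGT7 was 9.66, and 10.43 without E. That of COL4A3 was 8.56, with 11.33 without E and 7.98 without H. That of CADPS was 8.49, with 12.08 without H and 7.76 without D. For the falls, GFRA3 had -9.46, with -11.34 without D and -8.71 without H. ATP6V1B1 had -8.59, and -6.57 without H, and DNAH5 had -9.12, and -12.49 without A. Without E for COL4A3, H for CADPS and A for DNAH5 the low group had 0 counts, so these sizes have no measured level on that side. For ACBD7, RAB15, SLC16A4 and ASIC5 the values without 1 library ran from 8.13 to 9.72, down to 7.36, from -10.08 to -8.35 and from -9.67 to -7.47. None of these genes lost its call.

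Some transcripts had no count at all in a group: 62 called genes in U. ornatus and 68 in hybrids. SH2D4B, an adaptor with an SH2 domain, had 8.23, 4.91 and 7.75 CPM in hybrids and 0 in U. ornatus, at least 159-fold higher when the group as a whole is set at 3 counts (adjusted p = 2.04e-04). SYT11, a synaptotagmin, had 4.21, 5.44 and 5.17 CPM in hybrids, at least 112-fold higher (adjusted p = 1.06e-04). In the opposite direction, TCFL5, a transcription factor known from the testis, had 10.2, 57.2 and 39.8 CPM in U. ornatus and 0 in hybrids, at least 964-fold lower in hybrids (adjusted p = 4.73e-04). L3MBTL1, a chromatin-binding protein, had 11.3, 15.9 and 9.07 CPM in U. ornatus, at least 317-fold lower in hybrids (adjusted p = 7.33e-05). U. graciosus resembled the hybrids in these genes, with SH2D4B at 3.34 to 5.67 CPM, SYT11 at 1.94 to 3.7 CPM, and both TCFL5 and L3MBTL1 at no more than 0.169 CPM. CACNA2D3 was called at 0.0274 with 28.8, 47.7 and 0.736 CPM in U. ornatus and 0 in hybrids, and lost its call without any of A (0.0799), B (0.0753), D (0.0651), E (0.0507) and F (0.0578). Low counts were mostly even (73.5% to 75.9% of counts from 1 to 20 in these libraries), so a count may not equal a fragment, and the intervals and floors cover counting error only.

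Of 46 antioxidant genes tested, the class that the series set out to study, 2 were higher and 3 lower in hybrids, and the list's median was -0.04. Called members made up 10.9% of the list, against 18.4% of all genes tested. The counts depended on the fit: 4 were higher and 7 lower without X, T and O, and 2 and 8 in DESeq2. Over all genes these 2 fits called 4460 and 4022. When 1 library was left out, 2 to 3 members were higher and 2 to 6 lower. SOD3, the superoxide dismutase secreted from cells, had the largest difference of the called members. It stood at 49.8, 40.7 and 24 CPM in hybrids and at 369, 372 and 613 CPM in U. ornatus, with U. graciosus between them at 55.2, 77.2 and 157. The log2 difference was -3.56 ± 0.46 (SE; adjusted p = 2.01e-04), and all hybrids lay below all U. ornatus animals. NQO1, a quinone reductase and a target of the regulator NFE2L2, had 1.3, 1.86 and 1.62 CPM in hybrids against 6.53, 13.4 and 11.3 (log2 difference -2.70 ± 0.46, adjusted p = 0.00126). GLRX3, a glutaredoxin, was also lower, with a log2 difference of -0.86 (adjusted p = 0.0184), and stayed called in 15 of 18 refits, with 0.0849 without E.

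OXR1, an oxidation resistance protein, was higher in hybrids, at 101, 136 and 66 CPM against 25.5, 48.5 and 27.4 in U. ornatus (log2 difference 1.58 ± 0.33, adjusted p = 0.00502). U. graciosus held 49.5, 36.3 and 31.5 CPM of it, below all hybrids, though hybrids against U. graciosus gave an adjusted p of 0.134. PRDX5, a peroxiredoxin of mitochondria and peroxisomes, had 79.2, 102 and 69.3 CPM in hybrids against 37.5, 42.1 and 44.6 (log2 difference 1.01 ± 0.22, adjusted p = 0.00667), and U. graciosus had 84.5, 95.3 and 91.7. The main intracellular enzymes were not called. SOD1 of the cytosol stood at 567, 725 and 450 CPM in hybrids and 497, 683 and 318 in U. ornatus (log2 difference 0.22 ± 0.32, adjusted p = 0.677). SOD2 of the mitochondrial matrix stood at 157, 212 and 120 CPM against 94.6, 149 and 163 (0.26 ± 0.24, adjusted p = 0.472). Catalase (CAT) stood at 2604, 2441 and 4064 CPM against 1193, 3797 and 2169 (0.35 ± 0.50, adjusted p = 0.67). The groups overlapped in all 3 genes.

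GPX1, the glutathione peroxidase of the cytosol, had 253, 209 and 221 CPM in hybrids against 119, 167 and 93.8, groups that did not overlap, with a log2 difference of 0.85 ± 0.40 and an adjusted p of 0.153. GPX4, PRDX3 and GCLC had log2 differences of 0.47, 0.07 and -0.11 (adjusted p of 0.354, 0.917 and 0.83). NFE2L2, the regulator of many antioxidant genes, had 160, 125 and 122 CPM in hybrids and 121, 253 and 257 in U. ornatus (-0.63 ± 0.36, adjusted p = 0.228). TXNRD1, a thioredoxin reductase, had 11.6, 15.7 and 9.93 CPM against 26.9, 24.1 and 18.9. Its groups did not overlap, and its adjusted p of 0.158 became 0.0119 without hybrid X of the 40 °C group.

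Heat shock genes were called in 3 of 41 cases, all higher in hybrids, with a list median of -0.04. These 7.32% were fewer than the 9.74% of all genes tested that were called higher. The single direction depended on the fit: 4 were higher and 4 lower without X, T and O, and 5 and 2 in DESeq2. With 1 library left out, 3 to 4 were higher and 0 to 2 lower. HSF1, the transcription factor that activates heat shock genes, had 26.9, 29.5 and 33.1 CPM in hybrids, 7.58, 7.88 and 9.49 in U. ornatus and 20.2, 17.4 and 17.9 in U. graciosus. Its log2 difference was 1.84 ± 0.20 (adjusted p = 7.33e-05), with tight groups that lay far apart. HSPB11, also known as a component of the transport system of cilia, had 5.26, 5.05 and 6.08 CPM against 1.23, 0.921 and 0.62 (2.56 ± 0.37, adjusted p = 4.55e-04). BAG4, a co-chaperone of HSP70 proteins, had 50.6, 48.2 and 42.1 CPM against 32.1, 21.8 and 24.8 (0.84 ± 0.19, adjusted p = 0.00815). The chaperones themselves were not called: HSP90AA1 had a log2 difference of -0.15 ± 0.91 (adjusted p = 0.929) and HSPA8 one of 0.09 ± 1.04 (adjusted p = 0.963), and both overlapped between groups. These standard errors reflect the spread in all 18 libraries. HSP90AA1 ran from 207 to 386 CPM in the animals compared and reached 10847 CPM in U. graciosus T at 40 °C, which also held 1930 CPM of HSPA8.

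**Figure D2:**
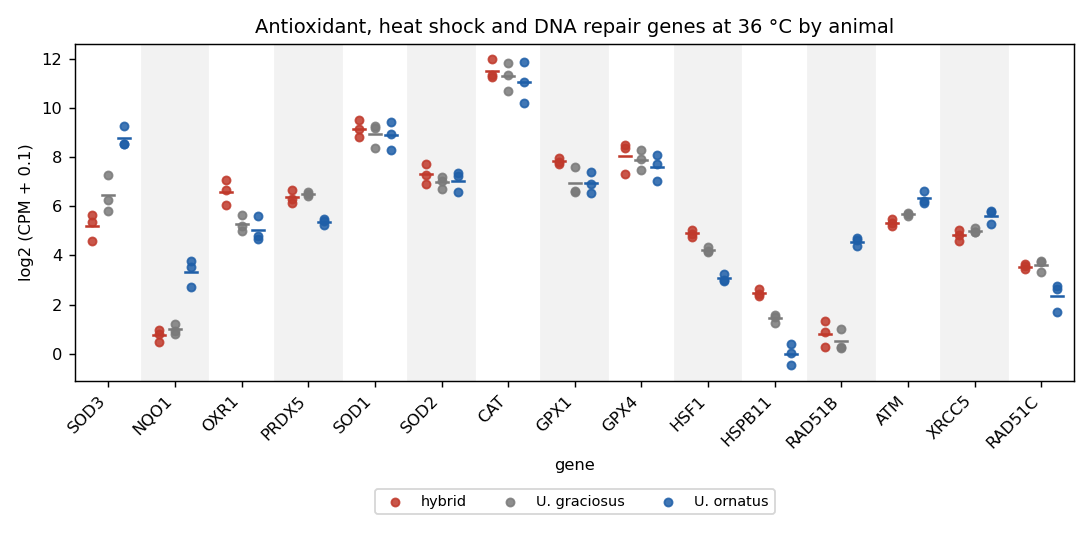
Each point is an animal at 36 °C, as log2 of CPM plus 0.1, and the short line is the mean of 3 animals on that scale. SOD3, NQO1, RAD51B, ATM and XRCC5 lie lower in hybrids (red) than in U. ornatus (blue), HSF1 and HSPB11 lie higher, and SOD1, SOD2, CAT and GPX4 overlap; U. graciosus is in grey.

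Nuclear-encoded subunits of the respiratory chain, where called in the edgeR fit of all 18 libraries, were higher in hybrids. Among 35 subunits of complex I, which takes electrons from NADH, 6 were higher and none lower, with a median of 0.27 and 24 members above 0. That is 17.1% of the list, against 9.74% of all genes tested called higher and 18.4% called in either direction. NDUFB10 stood at 124, 137 and 128 CPM in hybrids and at 37.1, 50.4 and 46.7 in U. ornatus, with U. graciosus at 139, 111 and 104 (log2 difference 1.54 ± 0.29, adjusted p = 0.00239). NDUFS6 had 47.9, 43.3 and 55.3 CPM against 19.4, 13.1 and 14.8 (1.63 ± 0.35, adjusted p = 0.00547). NDUFA8 had 66.2, 74.9 and 69.1 CPM against 37, 35.4 and 40.1 (0.90 ± 0.18, adjusted p = 0.00379). No hybrid fell within the U. ornatus range for any of the 3 genes. NDUFV1 (1.15, adjusted p = 0.0109, and 0.054 without D) was also called. So was NDUFS4 (0.67, adjusted p = 0.0306), which stayed called in 13 of 18 refits, with 0.13 without E. The number of higher subunits ran from 4 to 7 when 1 library was left out, and that of lower ones from 0 to 1. Without X, T and O 7 subunits were higher and 1 lower, and in DESeq2 6 and 1.

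Of 41 listed subunits of complexes II to V, 19 were found under their listed names and tested. Of these 19, 3 were higher and none lower, with a median of 0.34. That is 15.8%, against 9.74% of all genes tested called higher and 18.4% called in either direction. All 3, ATP5F1A, ATP5F1E and ATP5MG, are subunits of ATP synthase, with log2 differences of 0.79 to 0.93 and adjusted p of 0.0396 to 0.0498. None of these calls was firm: ATP5F1E stayed called in 11 of 18 refits, ATP5F1A in 3 and ATP5MG in 4, and without hybrid A no member of the list was called. Of 51 listed assembly factors, 22 were tested. They differed in both directions, with 4 of 22 higher (18.2%) and 2 lower (9.09%), a median of 0.22. SDHAF2, which inserts the flavin cofactor into succinate dehydrogenase, had 25.3, 37.4 and 27.2 CPM in hybrids against 8.95, 5.53 and 12.6 (1.73 ± 0.26, adjusted p = 5.66e-04). NDUFAF2 had 6.31, 5.95 and 7.34 CPM against 2.04, 1.47 and 2.09 (1.80 ± 0.29, adjusted p = 9.78e-04). In contrast, NDUFAF1, another assembly factor of complex I, had 10.1, 17.5 and 9.02 CPM against 32.9, 38.5 and 26.4 (-1.42 ± 0.31, adjusted p = 0.00605).

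Genes that express the mitochondrial genome were called about as often as all genes tested (9.74% higher, 8.71% lower). Of 77 mitochondrial ribosomal proteins, 8 were higher (10.4%) and 7 lower (9.09%), with a median of 0.14. MRPL45 had 24.3, 24.9 and 20.2 CPM in hybrids against 55.6, 60.5 and 57.2 in U. ornatus (-1.32 ± 0.19, adjusted p = 4.46e-04), and MRPL38 was lower too (-1.0 ± 0.22, adjusted p = 0.00609). The higher ribosomal proteins were less firm: without U. ornatus F none of them was called, DAP3 at 0.0536 and MRPS5 at 0.0588 included. Their number reached 12 in another refit with 1 library left out, 12 in DESeq2 and 13 without X, T and O. Of 42 genes for the upkeep and expression of mitochondrial DNA, 5 were higher (11.9%) and 4 lower (9.52%), with a median of 0.03. ELAC2, which trims the 3′ ends of transfer RNAs, had 28.5, 33.5 and 32 CPM against 18.7, 18.4 and 14.5 (0.86 ± 0.15, adjusted p = 0.00126). TBRG4, a regulator of mitochondrial messenger RNAs, had 52.6, 59.9 and 59.7 CPM against 24.6, 19.5 and 29.9 (1.22 ± 0.26, adjusted p = 0.00494). MTRF1L, a release factor of mitochondrial translation, was lower, at 4.64, 6.09 and 3.65 CPM against 13.7, 8.06 and 12.1 (-1.24 ± 0.30, adjusted p = 0.0104). POLG, the polymerase that copies mitochondrial DNA, had a log2 difference of 0.04 ± 0.30 (adjusted p = 0.938).

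Of 38 genes of protein import and quality control in mitochondria, 6 were higher and none lower, with a median of 0.22 and 27 members above 0. The share was 15.8%, against 9.74% of all genes tested called higher and 18.4% called in either direction. TIMM50, a receptor of the inner membrane translocase, had 26.5, 28.7 and 26.2 CPM in hybrids against 16.3, 11.6 and 9.73 (1.11 ± 0.24, adjusted p = 0.00515). TIMM13, a small chaperone of the intermembrane space, had 21, 23.9 and 23.1 CPM against 9.19, 10 and 9.8 (1.23 ± 0.30, adjusted p = 0.0121). The groups did not overlap in either gene. The other 4 were TOMM40, TRAP1, CHCHD3 and IMMT, with log2 differences of 0.67 to 1.38, and each stayed called in 13 to 15 of 18 refits. The count of higher members ran from 2, without hybrid B, to 7, and that of lower members from 0 to 1. Without X, T and O 8 members were higher and 2 lower, and in DESeq2 7 and 0. CHCHD3 and IMMT, which shape the cristae, lost their calls without hybrid B (0.119 and 0.134), without U. ornatus F (0.0674 and 0.0795) and without U. ornatus H (0.0554 and 0.0599), and CHCHD3 also without E (0.0833). Proteins encoded in mitochondrial DNA were not analysed here, as none of the 29 listed was found under its listed name in the counts used.

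Genes of double-strand break repair, where called, were mostly lower in hybrids at 36 °C. Of 33 genes that signal or repair double-strand breaks, 2 were higher and 11 lower in hybrids, with a list median of -0.48 and 9 members above 0. The lower genes made up 33.3% of this list, against 8.71% of all genes tested. At 40 °C, in other animals, 4 genes of the list were higher and 4 lower with a median of -0.10, and without X, T and O 2 were higher and 5 lower with a median of -0.24. Of all genes tested, 9.65% were higher and 8.77% lower at 40 °C. RAD51B, a gene of homologous recombination, had 2.38, 1.72 and 1.11 CPM in hybrids against 24.6, 20.7 and 25.8 in U. ornatus, with U. graciosus at 1.07, 1.9 and 1.1 (log2 difference -3.75 ± 0.40, adjusted p = 7.31e-05). ATM, the kinase that signals breaks, had 39.6, 36.8 and 44.3 CPM against 97.2, 75.1 and 71.1, with U. graciosus at 50.9, 48.7 and 52.7 (-1.01 ± 0.16, adjusted p = 7.85e-04). XRCC5, the larger subunit of the Ku end-binding protein, had 28.4, 32.8 and 24.2 CPM against 54.3, 55.6 and 38.7 (-0.80 ± 0.17, adjusted p = 0.006). In each of the 3 genes all hybrids lay below all U. ornatus animals.

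The remaining lower genes were CHEK1, MRE11, RAD50, BRCA1, PALB2, XRCC4, NHEJ1 and WRN, with log2 differences of -0.83 to -1.74 and adjusted p of 0.0228 to 0.0496. These 8 calls held in 3 (CHEK1) to 14 (NHEJ1) of 18 refits, and 3 genes of the list were called lower without hybrid A. RAD51C, also of homologous recombination, was higher, at 12.3, 10.8 and 11.7 CPM against 3.17, 6.13 and 6.59 (1.13 ± 0.29, adjusted p = 0.0161), and lost its call without E (0.0643) and without A (0.0507). NBN was the other higher gene (0.55, adjusted p = 0.0346) and stayed called in 14 of 18 refits, with 0.139 without D. Base excision repair, which removes oxidised bases, had 3 of 26 members higher (11.5%, near the 9.74% of all genes) and 1 lower (3.85%), with a median of 0.23. LIG3, the ligase that also seals mitochondrial DNA, had 18.4, 16.5 and 21.9 CPM in hybrids against 28.1, 38.8 and 47.7 (-1.01 ± 0.23, adjusted p = 0.00799). POLE, a replicative polymerase, had 3.68, 5.05 and 3.8 CPM against 0.473, 0.737 and 0.969 (2.51 ± 0.59, adjusted p = 0.00937). MPG and NTHL1, glycosylases that cut out damaged bases, were higher by 1.30 (adjusted p = 0.0184) and 1.24 (adjusted p = 0.0346); without hybrid A these became 0.0769 and 0.0801, and both calls were also lost without U. ornatus F (0.07 and 0.125) and without U. ornatus E (0.0727 and 0.0543). NTHL1 was lost as well without B (0.0825) and without D (0.0666). OGG1, which excises oxidised guanine, stood at 3.96, 5.26 and 3.65 CPM against 3.03, 5.62 and 5.31 (-0.12 ± 0.30, adjusted p = 0.824).

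Genes of the interferon response and of antigen presentation, where called, were lower in hybrids. Of 24 genes of the interferon response, 5 were lower and none higher, with a median of -0.85. The share was 20.8%, against 8.71% of all genes tested called lower and 18.4% called in either direction. EIF2AK2, the kinase that halts translation on double-stranded RNA, had 6.44, 5.37 and 9.62 CPM in hybrids against 22.8, 30.8 and 35.4, with U. graciosus at 11.9, 17.4 and 19.8 (log2 difference -2.06 ± 0.36, adjusted p = 0.00174). IFNAR1, a chain of the interferon receptor, had 5.82, 3.01 and 5.93 CPM against 15, 19.5 and 17.5 (-1.82 ± 0.35, adjusted p = 0.00288). The groups were separate for both genes. IRF1, a transcription factor of the interferon response, had 12.7, 7.77 and 20.4 CPM against 143, 44.9 and 37, and its log2 difference of -2.46 (adjusted p = 0.0158) became -1.59 (0.0939) without U. ornatus E and also lost its call without A (0.0594) and without B (0.0675).

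Antigen processing and presentation had 4 of 15 members lower (26.7%, against 8.71%) and none higher, with a median of -1.08 and 2 members above 0. PSME2, a subunit of the proteasome activator, had 34.5, 42.4 and 33.5 CPM in hybrids against 110, 92.3 and 76.8 (-1.34 ± 0.24, adjusted p = 0.00212). CTSS, a protease that readies antigens for presentation, had 78.8, 42.3 and 94.5 CPM against 323, 175 and 203 (-1.70 ± 0.40, adjusted p = 0.00965), and U. graciosus had 65.7, 67.6 and 78.9. No hybrid reached the lowest U. ornatus animal in either gene. PSME1 (-1.44, adjusted p = 0.0116) lost its call without E (0.0642), and CIITA, the activator of class II genes, was called at 0.0440 and stayed so in 7 of 18 refits. The number of lower members ran from 2 to 9 for the interferon list and from 2 to 5 for antigen presentation when 1 library was left out. That of higher members ran from 0 to 1 for the interferon list.

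Animal E, which was highest for IRF1, PSME1 and CTSS, was also highest of its group for the markers of macrophages and of T and NK cells, but not for those of B cells or granulocytes, and it was the lowest of its group for EIF2AK2 and IFNAR1. The 9 macrophage and Kupffer cell markers summed to 868 CPM in E, 548 in F and 545 in H, against 530, 325 and 619 in the hybrids. The 11 markers of T and NK cells summed to 65.9 CPM in E, 20.5 in F and 23.4 in H, against 31.8, 15.4 and 47.2 in the hybrids. The 13 markers of B and plasma cells summed to 48.2, 57.5 and 55.3 CPM in E, F and H against 57.2, 41.9 and 94.2, and the 5 granulocyte markers to 37.6, 24.5 and 46.8 against 54.8, 27.7 and 34.3. None of these markers had 0 counts in either group. VSIG4, a complement receptor of Kupffer cells, was the called member of the 9 macrophage markers (11.1%, against 18.4% of all genes tested). It stood at 4.21, 3.44 and 2.74 CPM in hybrids against 18.5, 8.02 and 10.7 (-1.84 ± 0.55, adjusted p = 0.0305). Without E its adjusted p was 0.122, without A 0.0662, without B 0.085 and without D 0.0936. MARCO, the most abundant marker of the list with C1QC, overlapped between groups (-1.05 ± 0.60, adjusted p = 0.238). The part of cell content in the immune gene differences was not tested. Complement, coagulation and acute phase proteins, which hepatocytes secrete, had 1 called member of 38 (2.63%, against 18.4% of all genes tested). It was C8G, a subunit of the membrane attack complex, at 42.2, 48 and 40.6 CPM in hybrids against 2.98, 7.65 and 13.6. Its log2 difference was 2.43 ± 0.55 (adjusted p = 0.00786), and 3.04 without H.

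**Figure D3:**
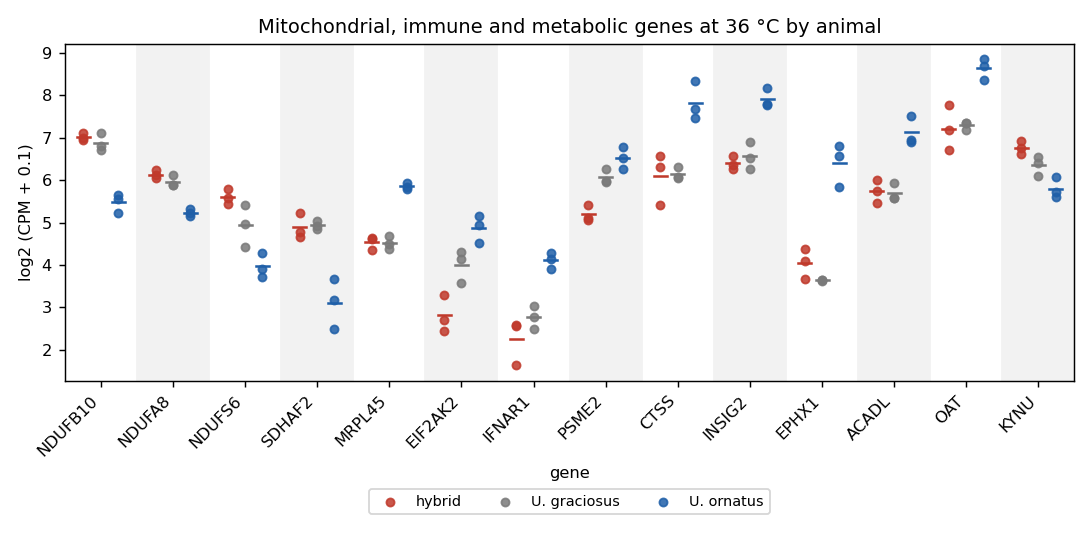
Each point is an animal at 36 °C, as log2 of CPM plus 0.1, and the short line is the mean of 3 animals on that scale. For these genes hybrids (red) and U. ornatus (blue) do not overlap: NDUFB10, NDUFA8, NDUFS6, SDHAF2 and KYNU are higher in hybrids, and MRPL45, EIF2AK2, IFNAR1, PSME2, CTSS, INSIG2, EPHX1, ACADL and OAT are lower.

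Of 60 listed conjugation and aldehyde enzymes of detoxification, 26 were tested. Of these 26, 2 were higher (7.69%, against 9.74% of all genes tested) and 5 lower (19.2%, against 8.71%), with a median of -0.32. EPHX1, which opens reactive epoxides, had 17.1, 20.5 and 12.7 CPM in hybrids against 57, 94.2 and 112 in U. ornatus, with U. graciosus at 12.5, 12.2 and 12.5 (log2 difference -2.39 ± 0.43, adjusted p = 0.00192). GSTO1, a glutathione transferase, had 11.9, 7.23 and 11.6 CPM against 22.2, 45.8 and 34 (-1.73 ± 0.36, adjusted p = 0.00465). TPMT, which methylates thiopurines, had 9.81, 12.8 and 8.86 CPM against 26.1, 42.6 and 20.1 (-1.49 ± 0.32, adjusted p = 0.0057). All 3 were lower in every hybrid than in every U. ornatus animal. ALDH7A1, an aldehyde dehydrogenase of lysine breakdown, was among the most abundant called genes, at 1933, 1723 and 1803 CPM against 275, 714 and 830 (1.59 ± 0.49, adjusted p = 0.0356); it lost its call without E (0.127), F (0.0712), A (0.0866), B (0.0693) or D (0.0687). Cytochrome P450 genes were not analysed here, as none of the 40 listed was found under its listed name in the counts used.

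Cholesterol and bile acid genes had 3 of 25 members higher and 3 lower, with a median of 0.26. These 12% each way were near the 9.74% higher and 8.71% lower of all genes tested. INSIG2, which holds back the activation of cholesterol synthesis, had 77, 94.8 and 82 CPM in hybrids against 218, 289 and 222 (-1.52 ± 0.37, adjusted p = 0.0113). The groups were far apart. APOC3, an apolipoprotein that slows the clearance of triglyceride-rich particles, had 416, 425 and 591 CPM against 86.4, 128 and 110 (2.14 ± 0.45, adjusted p = 0.00465). It was the called member of 16 hepatocyte markers (6.25%, against 18.4% of all genes tested).

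Fatty acid synthesis and oxidation showed few calls, with 1 higher and 1 lower of 21 and 3 higher and 1 lower of 38. Called members made up 9.52% and 10.5% of these lists, against 18.4% of all genes tested. LPIN3, a phosphatidate phosphatase, had 1.27, 1.36 and 1.67 CPM in hybrids against 5.44, 21.7 and 12.4 (-3.20 ± 0.58, adjusted p = 0.00202). ACADL, the long-chain acyl-CoA dehydrogenase of mitochondria, had 64.4, 53.7 and 43.6 CPM against 181, 120 and 124 (-1.39 ± 0.21, adjusted p = 5.34e-04).

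In sugar metabolism, 3 of 33 genes were higher (9.09%, near the 9.74% of all genes) and none lower (median 0.57). PFKL, the liver phosphofructokinase that commits sugar to glycolysis, had 84, 74.9 and 70.3 CPM in hybrids, 18.8, 26.4 and 36.4 in U. ornatus and 35.2, 30.6 and 26.4 in U. graciosus (1.49 ± 0.31, adjusted p = 0.00438). Every hybrid was above every animal of both parental species, although hybrids against U. graciosus gave an adjusted p of 0.114. The count for this list moved with the settings, from 1 to 10 when a library was left out and to 11 without X, T and O. Amino acid breakdown had 8 of 48 members higher (16.7%, against 9.74% of all genes tested) and 1 lower (2.08%, against 8.71%), with a median of 0.12. Its share called in either direction was 18.8%, beside 18.4% of all genes tested. The higher members ran from 3, without U. ornatus E, to 9 when a library was left out. KYNU of tryptophan breakdown had 108, 121 and 97.9 CPM against 48.2, 67.6 and 52.7 (0.95 ± 0.20, adjusted p = 0.00468). MCCC2 of leucine breakdown had 84.3, 80 and 82.2 CPM against 43.8, 42 and 32.9 (1.05 ± 0.23, adjusted p = 0.00588). GOT2, the mitochondrial aspartate aminotransferase, had 138, 197 and 113 CPM against 60.2, 63.8 and 61.6 (1.27 ± 0.29, adjusted p = 0.00784). The lower member was OAT, ornithine aminotransferase, at 104, 218 and 144 CPM against 414, 460 and 328 (-1.37 ± 0.29, adjusted p = 0.00527).

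Haem and iron handling had 7 of 30 members higher and 1 lower, 23.3% higher against 9.74% of all genes, with a median of 0.27. FECH, which inserts iron into haem, had 183, 167 and 118 CPM in hybrids against 41.3, 78.5 and 59 (1.39 ± 0.34, adjusted p = 0.0113), and 0.054 without E. The count of higher members fell to 2 without U. ornatus F. The 12 markers of erythrocytes and thrombocytes summed to 686, 498 and 583 CPM in hybrids and 610, 583 and 874 in U. ornatus, and none was called.

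Lists of ribosomal, proteasome, stress, purine and cell cycle genes held few calls, 3.03% to 8.11% of their members against 18.4% of all genes tested. Cytosolic ribosomal proteins had 2 of 71 higher and 1 lower (median 0.01), among them RPS26 at 400, 378 and 394 CPM in hybrids against 184, 209 and 209 (0.96 ± 0.19, adjusted p = 0.00406). Proteasome subunits had 3 of 37 lower (median -0.13), endoplasmic reticulum stress 1 of 33 lower (median 0.14), and purine and uric acid synthesis 1 of 24 higher (median 0.08). None of the called members of these 3 lists stayed called in all 18 refits. Of 42 cell cycle genes 2 were higher (median 0.40): CDT1, lost without B (0.104), F (0.0886) or H (0.063), and CCNB2 at 11.3, 10.2 and 9.37 CPM against 1.7, 3.59 and 3.64 (1.78 ± 0.36, adjusted p = 0.0042). Autophagy had more, with 3 of 32 higher (9.38%) and 5 lower (15.6%, against 8.71% of all genes), a median of -0.36 and 5 members above 0. ATG2A, a lipid transfer protein of the growing autophagosome, was higher at 49, 42 and 51.9 CPM against 15.2, 17.6 and 25 (1.30 ± 0.22, adjusted p = 0.00145). MAP1LC3A, which coats the autophagosome, was lower at 70.8, 44.3 and 77.1 CPM against 160, 141 and 123 (-1.14 ± 0.27, adjusted p = 0.0107), with 0.0514 without B. The number of lower autophagy genes ran from 1, without hybrid A, to 6.

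In the circadian clock 3 of 21 genes were higher and 1 lower (19% called, near the 18.4% of all genes; median 0.41). CLOCK, part of the activator of the clock, had 56.1, 51.1 and 52.3 CPM in hybrids against 34.3, 27.3 and 28.9 (0.82 ± 0.16, adjusted p = 0.00289). The labels give no time of day for the samples. Nuclear receptors and other regulators of the liver had 4 of 29 higher and 1 lower (17.2% called, median 0.23), each called in 11 to 15 of 18 refits. The sex steroid and growth axis had 2 of 20 higher (10%, median 0.47). SRD5A2, which makes dihydrotestosterone, had 9.01, 13.8 and 26 CPM in hybrids against 0.852, 0.737 and 1.47, with U. graciosus at 31.4, 16 and 18.2 (3.98 ± 0.81, adjusted p = 0.00428). The other was ESR2, an oestrogen receptor, at 7.64, 2.44 and 15 CPM against 0.237, 1.66 and 0.504 (3.38 ± 1.04, adjusted p = 0.0339), which lost its call without E (0.114), D (0.109), H (0.1) or A (0.0653); its difference was 4.46 without F and 2.66 without D.

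**Figure D4:**
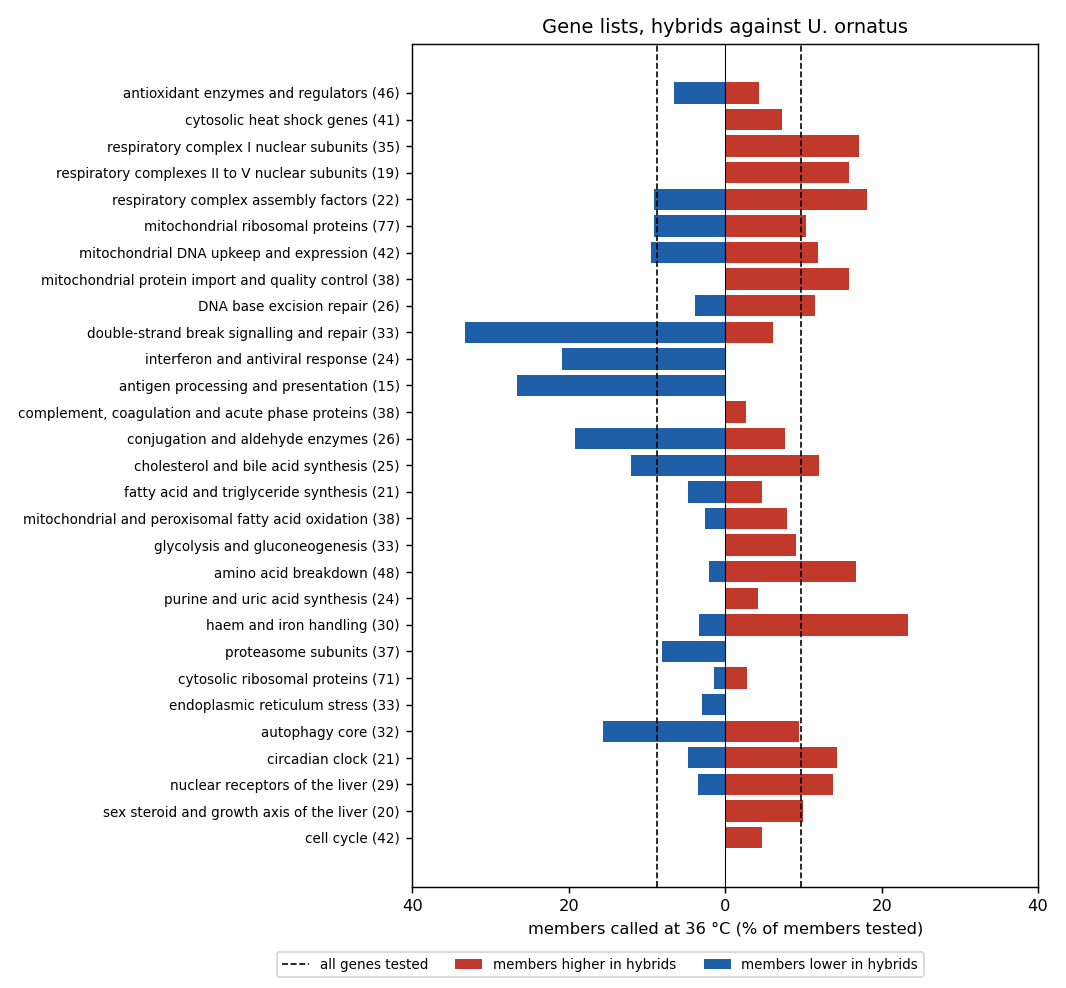
Bars give the share of tested members of each pathway list that were called higher (red, to the right) or lower (blue, to the left) in hybrids at 36 °C, with the number tested in brackets. Dashed lines mark the shares over all genes tested, 9.74% higher and 8.71% lower; the bars for double-strand break repair, antigen presentation and interferon genes reach furthest to the left and the bar for haem and iron handling furthest to the right.

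Markers of other cell types were also compared. Endothelial markers summed to 940, 730 and 983 CPM in hybrids against 433, 515 and 865 in U. ornatus, with a median of 0.43 and 2 of 17 higher (11.8%, near the 9.74% of all genes tested). These were ENG and STAB1, called at adjusted p of 0.0292 and 0.0397. ENG lost the call without E (0.106), A (0.0757), F (0.0744) or D (0.0666), and STAB1 without E (0.145), F (0.133), A (0.105), D (0.0991), the U. graciosus library P at 40 °C (0.0508) or B (0.0507). Stellate cell and fibroblast markers summed to 785, 710 and 927 CPM against 403, 689 and 546, with a median of 0.80. Of these 19 markers 2 were higher (10.5%, near the 9.74% of all genes tested) and 1 lower (5.26%, against 8.71%). PDGFRA, a growth factor receptor of fibroblasts, had 38.3, 33.5 and 48.6 CPM against 7.58, 10.8 and 10.6 (2.06 ± 0.42, adjusted p = 0.00422). Of the lower member, POSTN, U. ornatus had 22, 17.7 and 6.78 CPM against 2.04, 3.58 and 2.13, with an adjusted p of 0.0113 that became 0.0513 without A. SLC4A2, an anion exchanger listed with the bile duct markers, was higher at 67, 65.1 and 64.1 CPM against 30.1, 35.4 and 35 (0.97 ± 0.21, adjusted p = 0.00539).

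Skeletal muscle markers stood apart in hybrid D, where they summed to 175 CPM, against 8.08 in A, 27.5 in B and 13.1 to 28.1 in U. ornatus. ACTA1, the actin of skeletal muscle, had 0.774, 7.7 and 22.5 CPM in hybrids against 0.947, 0.829 and 0.543, and its log2 difference of 3.73 ± 0.82 (adjusted p = 0.0065) was 2.45 without D. ACTA1 and CKM were the 2 called members of 13, both higher. That is 15.4%, against 9.74% of all genes tested called higher and 18.4% called in either direction. The groups of ACTA1 and CKM overlapped, and hybrid D was highest for both. The list's median was 2.32, with 11 members above 0. At 40 °C, in other animals, 0 members were higher and 3 lower, with a median of -1.38. Without X, T and O 0 were higher and 2 lower there, with a median of -0.77. The markers of B and plasma cells had 1 called member of 13 (7.69%, against 18.4% of all genes tested). Those of kidney and gonad had 1 of 9 (11.1%), SLC34A1, with 0 counts in hybrids. The markers of T and NK cells, granulocytes, pancreas and gut, and adipocytes had none called of 11, 5, 10 and 5. Whether cell content shaped the differences in other genes was not tested.

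The same contrast could be read in other animals at 40 °C, where hybrids I, K and X and U. ornatus L, N and O differed in 2920 genes (18.4%), 1530 higher (9.65%) and 1390 lower (8.77%) in hybrids, and in 3017 without X, T and O. That number depended on the libraries in the fit: it was 497 with only the 6 libraries compared and 1518 with those of 1 temperature, while the count at 36 °C was 2959 and 3415 in such fits. Of the 2925 genes called at 36 °C, 2764 (94.5%) had the same direction at 40 °C, against 69.1% of the genes not called at 36 °C. In 1473 genes the call was made at both temperatures in the same direction, 50.4% of either list. The 2 contrasts share each gene's estimate of spread in 1 fit, so these calls are not independent. Without X, T and O, 2785 of 2924 genes (95.2%) kept the direction, and 1454 were called at both temperatures. Genes called higher at 36 °C had a median log2 difference of 1.53 there and of 1.08 at 40 °C, and genes called lower had -1.60 and -1.09; the members were chosen on the values at 36 °C.

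Of 139 genes named by the rule and called at 36 °C, 94 were called at 40 °C in the same direction, 40 had the same direction and were not called, 5 had the opposite direction and were not called, and 36 had overlapping groups at 40 °C. Without X, T and O the first 3 counts were 92, 42 and 5 genes. The rule took mostly genes with large differences or small p, so these counts are not a rate for all genes. Of all 2925 genes called at 36 °C, 50.4% were called at both temperatures in the same direction. The share with overlapping groups over all genes is not given here. SOD3 had 24.4 CPM in hybrid I, 50.4 in K and 71.8 in X against 413, 353 and 404 in U. ornatus L, N and O (-3.00 ± 0.45, adjusted p = 7.30e-04; -3.35 without X, T and O, adjusted p = 0.00175). HSF1 had 29.9, 26.4 and 20.3 CPM against 12, 10.3 and 9.32 (1.28 ± 0.20, adjusted p = 9.38e-04; 1.34 and 0.00109). RAD51B had 2.13, 0.871 and 2.8 CPM against 14.6, 19.3 and 16.9 (-3.12 ± 0.39, adjusted p = 2.15e-04; -3.49 and 7.16e-04). In these 3 genes the groups were separate at both temperatures. Other genes called at 36 °C overlapped at 40 °C and were not called there. XRCC5 had 26.3, 29.3 and 30.1 CPM against 30.1, 26 and 29.8 (-0.00 ± 0.17, adjusted p = 0.992; -0.01 without X, T and O). TPMT had a log2 difference of 0.34 (adjusted p = 0.484; -0.07 without X, T and O), NDUFAF1 one of -0.19 (0.701; -0.52), MTRF1L one of -0.13 (0.801; -0.56) and OXR1 one of 0.70 (0.147; 0.50). The test between temperatures did not pass for XRCC5 (adjusted p = 0.375), TPMT (0.292), NDUFAF1 (0.405), MTRF1L (0.429) or OXR1 (0.566).

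The lists did not all read alike at 40 °C. Over all genes tested, 9.65% were higher and 8.77% lower in hybrids there, and 1483 and 1534 of 15999 without X, T and O. Complex I subunits had 10 of 35 higher and none lower (18 and none without X, T and O), and the interferon list had 1 of 24 higher and 9 lower (none and 8). Antigen presentation had 9 of 15 lower and none higher, with or without X, T and O. Without X, T and O, 7 of 9 macrophage markers were also lower at 40 °C, against none with them. Lower in that fit too were 6 of 13 markers of B and plasma cells, 5 of 12 of erythrocytes and thrombocytes and 2 of 5 of granulocytes. With X, T and O these were 5, 0 and 0, and no marker of T and NK cells was called in either fit. The part of cell content was not tested. Mitochondrial ribosomal proteins had 18 of 77 higher and 3 lower (18 and 2 without X, T and O). Genes for the upkeep and expression of mitochondrial DNA had 10 of 42 higher and 1 lower (4 and 1). Haem and iron handling had 5 of 30 higher and 2 lower (4 and 2), and autophagy had none of 32 higher and 5 lower (1 and 4).

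**Figure D5:**
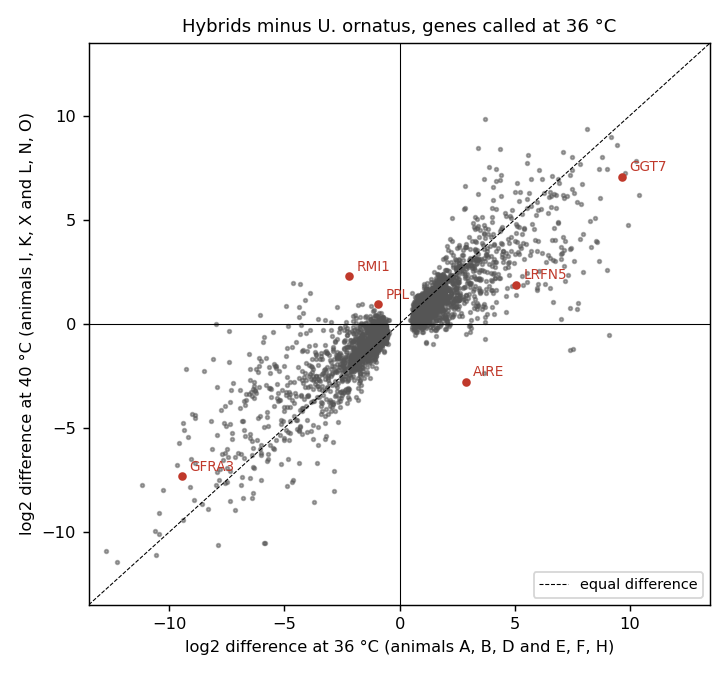
Each point is a gene called at 36 °C, with its log2 difference between hybrids and U. ornatus at 36 °C on the horizontal axis and at 40 °C, in other animals, on the vertical axis. Of the 2925 genes, 2764 lie in the upper right or lower left field, where the directions are the same; LRFN5, GFRA3, GGT7 and 3 of the 4 genes called in opposite directions are marked.

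A test of the difference between the temperatures called 0 of 15856 genes (0%) in edgeR, with 1529 genes at an unadjusted p under 0.05. DESeq2 called 92 genes and limma voom 1. The smallest adjusted p was 0.0717, shared by LRFN5, an adhesion molecule of synapses, and TPP1, a lysosomal peptidase. LRFN5 had 20.5, 17 and 17 CPM in hybrids against 0.758, 0.553 and 0.31 at 36 °C (5.07 ± 0.42, adjusted p = 1.29e-05), and 13.6, 10.1 and 10.6 CPM against 2.64, 4.02 and 2.62 at 40 °C (1.88 ± 0.35, adjusted p = 0.00284; 1.83 without X, T and O). At 36 °C the hybrids also lay above U. graciosus, at 2.88, 3.02 and 3.13 CPM (2.60, adjusted p = 0.00644). TPP1 had 31.8, 25 and 32.9 CPM against 8, 6.73 and 7.01 at 36 °C (2.04 ± 0.18, adjusted p = 2.17e-05), and 24.4, 29.4 and 21.7 CPM against 21.6, 15.5 and 17.6 at 40 °C (0.47 ± 0.18, adjusted p = 0.0784; 0.54 without X, T and O, adjusted p = 0.091). The U. ornatus animals at 40 °C were thus all above those at 36 °C for both genes. SOD2, not called at 36 °C, had 193, 193 and 160 CPM in hybrids against 81.5, 80.6 and 72.8 at 40 °C (1.22 ± 0.24, adjusted p = 0.00403; 1.26 without X, T and O, adjusted p = 0.0117), but the difference between temperatures had an adjusted p of 0.405.

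The parental species themselves were compared at 40 °C, in animals that share no library with the comparison at 36 °C. Both comparisons came from 1 fit with a shared estimate of each gene's spread, so their calls are not independent. There 1247 genes (7.86%) were higher in U. graciosus than in U. ornatus and 1281 (8.08%) were lower. Of the genes higher in U. graciosus, 646 (51.8%) were also called higher in hybrids at 36 °C and 3 lower, with a median log2 difference of 1.08. Of the genes lower in U. graciosus, 590 (46.1%) were called lower in hybrids and 4 higher, with a median of -1.16. Among the 13328 genes not called between the parents, 6.71% were higher and 5.91% lower in hybrids. Genes that followed the parental difference made up 41.8% of all higher and 42.7% of all lower calls. Without X, T and O the shares were 49.6% of 1214 and 39.6% of 1335 genes. Hybrids and U. graciosus at 36 °C, which share the hybrid libraries with the main comparison, differed in 13 genes (0.082%) in edgeR, with 206 in DESeq2 and 263 in limma voom. Of the genes described here, SOD3 had log2 differences of -3.56 from U. ornatus and -1.34 from U. graciosus (adjusted p = 0.339), HSF1 1.84 and 0.69 (adjusted p = 0.262), EIF2AK2 -2.06 and -1.20 (adjusted p = 0.294), and RAD51B -3.75 and 0.37 (adjusted p = 0.919).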

How the data were processed

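Liver RNA of 18 males was sequenced as directional libraries, per the labels' protocols. The submitters' processing notes name Trim Galore 0.6.4, STAR, Subread and DESeq2 as tools of the authors, and the series' design text gives Sceloporus undulatus, which belongs to another genus, as the genome used. How well the reads of each lineage matched that genome was not tested, and its build, the strand setting and the handling of multiply matching reads are given in no source used here. In the deposited table are the authors' raw counts per gene for 22773 genes, of which 9041 carry placeholder names, so near-identical gene copies and overlapping genes are uncertain.

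Genes were kept by filterByExpr on the 6 groups, scaled by TMM, and tested in R 4.3.3 by edgeR 4.0.16 (robust quasi-likelihood, 1 mean per group, all 18 libraries in 1 fit, two-sided tests). Calls were made at a Benjamini-Hochberg adjusted p under 0.05 over all genes tested. Standard errors were the log2 difference divided by the root of the F statistic. The pipeline was checked on simulated counts. The labels give each library its own letter and do not say more of how animals and extractions were separated, so p-values measure only the spread between these libraries, which may be technical; no pair of libraries within a group agreed within sampling noise (chi-square per degree of freedom of at least 135). Counting intervals are exact at 95%, and a group with 0 counts was set at a floor of 3 counts. The 42 gene lists with tested members, the named genes and the comparison itself were chosen with earlier results of these data known. Lists are described by counts and medians, with no test of the list. Genes were named by a rule: with a symbol and at least 1 CPM, the 12 largest rises and 12 largest falls; the 4 genes with the most counts among those with 0 counts in a group, on each side; of each list, the called members with the smallest p (at most 4); a fixed set of antioxidant, heat shock and repair genes; the 2 most abundant members of each cell type list; and the 3 smallest p of the test between temperatures. Other list members were named after their values were seen. Some genes that the rule names are not reported here, and the counts of lists include them. Alternatives were DESeq2 1.42.0, RLE factors, no filter, voom with quality weights in limma 3.58.1, a minimum size of 1 on the log2 scale, a minimum of 5 CPM in 3 libraries, fewer libraries in the fit, halved counts, and libraries left out.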

Additional observations from a re-analysis of the deposited data

Results flagged for a closer look

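Of the 2925 genes called at 36 °C, 161 had the opposite sign at 40 °C, and 4 of these were called at both temperatures. These 4 and TRIM24, which was called at 40 °C alone, are given here; in each, hybrids lay on opposite sides of U. ornatus at the 2 temperatures with no overlap. None passed the threshold in the test of the difference between temperatures. TRIM24 was the gene with the smallest adjusted p of these (0.0869); its log2 difference was 0.65 at 36 °C (adjusted p = 0.0838, and 0.039 without U. ornatus L) and -1.48 at 40 °C (adjusted p = 0.00165; -1.35 without X, T and O), 2.13 apart, with hybrids at 25.4 to 31 CPM over both temperatures, and U. ornatus at 15.3 to 22.6 CPM at 36 °C and 45.5 to 92.2 at 40 °C. The other 4 were chosen after their values were seen, as the genes called at both temperatures in opposite directions, and their calls at 36 °C were lost in some refits that left out 1 library. RMI1, of the complex that dissolves DNA crossovers, differed by -4.49 between temperatures (adjusted p = 0.217), and its difference at 40 °C of 2.29 was 0.88 (adjusted p = 0.366) without X, T and O; hybrid X held 6.26 CPM against 0.836 and 1.5 in I and K. At 36 °C its adjusted p of 0.0334 became 0.0993 without E, 0.0988 without F, 0.0845 without A, 0.0867 without B and 0.0975 without D. AIRE differed by 5.67 (adjusted p = 0.217), with -2.79 at 40 °C (-4.33 without X, T and O) and 2.88 at 36 °C, where U. ornatus had 8 counts in all against 72 in hybrids. The difference at 36 °C was 1.72 without hybrid B, and its adjusted p of 0.0307 became 0.193 without B, 0.0934 without E, 0.0759 without F and 0.0786 without H. ADCY9 differed by 1.22 (adjusted p = 0.217), and its call at 40 °C was not made without X, T and O (adjusted p = 0.159), nor its call at 36 °C without F (0.0649) or B (0.0578). PPL differed by -1.87 (adjusted p = 0.137), with 0.94 at 40 °C (1.24 without X, T and O), and lost its call at 36 °C without F (0.0684), A (0.0641) or D (0.0552).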

How the results depend on the processing

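No paired analysis was possible because every animal belongs to 1 group and groups share no replicate letters. For hybrids against U. ornatus at 36 °C, 2925 genes were called, and 2201 to 4022 under DESeq2, RLE factors, no filter, the stricter filter, the log2 threshold, only the 6 libraries, 1 temperature and halved counts. The count was 4451 with limma voom, 4460 without X, T and O, and 1685 to 3858 with 1 library left out. DESeq2 shared 2919 of the 2925 genes and voom 2804. At 40 °C the 2920 calls became 4812 with limma voom, 497 with only the libraries compared, 1518 with 1 temperature and 1682 to 3222 with 1 library left out. The test between temperatures called 0 genes, and 92 in DESeq2, 1 in voom, 1 without X, T and O and 0 to 2 with 1 library left out. For U. graciosus against U. ornatus at 40 °C, voom called 4313 genes, the fit of 1 temperature 1321, and the leave-outs 1489 to 3444. For hybrids against U. graciosus at 36 °C the 13 calls became 206 in DESeq2, 263 in voom, 79 without X, T and O and 3 to 56 with 1 library left out. No named gene that was called reversed under any alternative; DESeq2 and halved counts lost none of those they tested, and leaving out 1 of the 6 compared libraries lost 26 (without H) to 44 (without E) of 150. The cause of these shifts was not tested. Rare transcripts limit the sizes given: below 1 CPM, groups rest on few counts.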

Other observations

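Among the most abundant called genes were GNMT, DMGDH, SORD, CST3 and APLP2, chosen after their values were seen. GNMT, which uses up methyl groups by methylating glycine, stood at 1968, 947 and 1894 CPM in hybrids A, B and D and at 596, 410 and 455 CPM in U. ornatus E, F and H (log2 difference 1.72 ± 0.54, adjusted p = 0.0376). DMGDH, which oxidises dimethylglycine in mitochondria, stood at 786, 689 and 940 CPM against 199, 352 and 163 (1.76 ± 0.53, adjusted p = 0.0305). SORD, sorbitol dehydrogenase, stood at 722, 995 and 624 CPM against 352, 322 and 347 (1.20 ± 0.35, adjusted p = 0.0269). CST3, a secreted inhibitor of cysteine proteases, was lower, at 1236, 639 and 633 CPM against 1880, 3455 and 2715 (-1.68 ± 0.45, adjusted p = 0.0184). The groups did not overlap in any of these genes. Each call was lost when some single libraries were left out, with adjusted p of up to 0.116 for GNMT, 0.0997 for DMGDH, 0.102 for SORD and 0.0751 for CST3. APLP2, a relative of the amyloid precursor protein, stayed called in all 18 refits, at 708, 742 and 690 CPM against 234, 366 and 286 (1.27 ± 0.24, adjusted p = 0.00232).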
